A study of Homo sapiens with 6 samples.

Results

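The genes described here are 10 genes of ferritin and iron handling, chosen by name for their known roles, with earlier results of these data known. They were FTL, FTH1, TFRC, SLC40A1, SLC11A2, SLC39A14, ACO1, IREB2, NCOA4 and STEAP3, out of 29845 genes listed in the count table, and all 10 passed the filter on low counts that left 16555 genes for the test. The libraries came from A549, an established human lung adenocarcinoma line with epithelial features. Poly(A) RNA was sequenced from cells lipofected with a pIRES-hrGFP-1a vector that carried the human TFAM cDNA (TFAM-OE) or with the empty vector (control), at 48 h after transfection, with 3 libraries in each group. TFAM packages mitochondrial DNA and drives its transcription, and the comparison asked which transcripts changed when more of it was made. Both groups went through the transfection and received the vector backbone with its GFP reporter. No selection of transfected cells is stated in the methods, so the RNA is that of whole cultures.

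Iron enters most cells bound to transferrin, which the transferrin receptor carries into endosomes. There a ferrireductase reduces the iron and a divalent metal transporter passes it to the cytosol. Iron that is not used is stored inside ferritin, a shell of heavy and light chains in which the heavy chain oxidises the metal and the light chain favours its deposition as a mineral core. Ferroportin is the known exporter of the metal from vertebrate cells. The iron regulatory proteins, encoded by ACO1 and IREB2, bind a short hairpin called the iron-responsive element when iron is scarce. Bound in a 5′ untranslated region the hairpin blocks translation, as for ferritin and ferroportin, and bound in a 3′ untranslated region it protects the mRNA from decay, as for the transferrin receptor. Hence part of this pathway is set at the level of protein, which RNA libraries do not measure.

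The hairpins are shown first, because they are what links the ferritin, ferroportin and transferrin receptor mRNAs. They were searched for on the mRNA strand of the coding transcripts of GENCODE version 44 on GRCh38. The pattern was a C, 5 bases, the loop CAGTGN and 5 bases able to pair with those before the loop, G with T allowed. Among the 10 genes, 4 (40%) held a match in their reference (MANE) mRNA. In all, 256 of 19061 reference mRNAs (1.34%) held one, and 140 (0.734%) had it within an untranslated region. The pattern has the form of the element for which ferritin, ferroportin and transferrin receptor mRNAs are known. The contrast was therefore set in advance and is a description only. Each sequence runs 5′ to 3′ along the mRNA with 6 further bases on its outer sides, and capitals mark the 6 bases of the loop.
FTL: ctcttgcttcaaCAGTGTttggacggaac
FTH1: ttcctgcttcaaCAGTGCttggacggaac
SLC40A1: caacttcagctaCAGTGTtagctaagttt
TFRC hairpin a: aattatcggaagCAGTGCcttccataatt
TFRC hairpin b: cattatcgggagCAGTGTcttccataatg
TFRC hairpin c: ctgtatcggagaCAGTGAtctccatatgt
TFRC hairpin d: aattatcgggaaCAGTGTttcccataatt

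The single hairpins of FTL (chr19:48965335-48965363, plus strand), FTH1 (chr11:61967574-61967602, minus strand) and SLC40A1 (chr2:189580661-189580689, minus strand) lay in the 5′ untranslated region. The 4 of TFRC lay in its 3′ untranslated region on the minus strand, at chr3:196050979-196051007, chr3:196050575-196050603, chr3:196050510-196050538 and chr3:196050463-196050491. No match by these letters was found in the other 6 genes. The pattern is strict, and EPAS1 and CDC42BPA, listed among the further genes as mRNAs with an iron-responsive element, gave no match either. Any of these genes, TFRC included, may therefore hold elements that the pattern misses. A match is a description of the sequence, and binding was not measured.

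The library totals ran from 26650854 to 37321956 counted reads. TFAM itself had 76.1, 70.2 and 72.7 normalised counts (CPM, the count scaled by library size and the TMM factor) in the control libraries and 71.9, 77.3 and 83.0 in the libraries labelled TFAM-OE. These ranges overlapped, and the log2 fold change was 0.08 (SE 0.0960, edgeR quasi-likelihood test, adjusted p = 0.623). The study checked overexpression at the level of protein, by western blot for the FLAG tag, which is not analysed here. The TFAM count was meant as a check of the labels, and it did not show overexpression. Each direction given here is that of the libraries labelled TFAM-OE relative to control. The epithelial keratin-led marker list summed to between 5303 and 6807 CPM over the 6 libraries with all 7 of its genes tested, although EPCAM, CDH1 and MUC1 were low. Of 5 alveolar type 2 markers only ABCA3 passed the filter, while SFTPC had at most 6 reads in any library. Summed markers of other cell types stayed at or below 0.110 CPM (erythroid), 0.267 CPM (endothelial), 0.715 CPM (leukocyte and macrophage) and 5.04 CPM (fibroblast), the last at 4.88 to 5.04 in control and 2.92 to 4.93 in TFAM-OE. On the second principal component, with 24.83% of the variance, TFAM-OE 1 and TFAM-OE 3 stood at opposite ends, whereas the first, with 50.69%, separated the groups.

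Of the 10 iron handling genes, ACO1 rose, TFRC and SLC40A1 fell, and the other 7 did not pass the test (edgeR, adjusted p below 0.05 over all genes tested). In the same fit 8.29% of all tested genes were called, 3.48% higher and 4.81% lower. None of the 10 met the additional requirement of a 2-fold change, which 2.51% of tested genes met (0.447% higher and 2.07% lower). The control and TFAM-OE ranges did not overlap for 4 of the 10 genes, 1 higher and 3 lower, against 31.7% of all tested genes. The median log2 fold change of the 10 was -0.17, with 2 positive and 8 negative values, beside -0.01 over all tested genes.

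**Figure D1:**
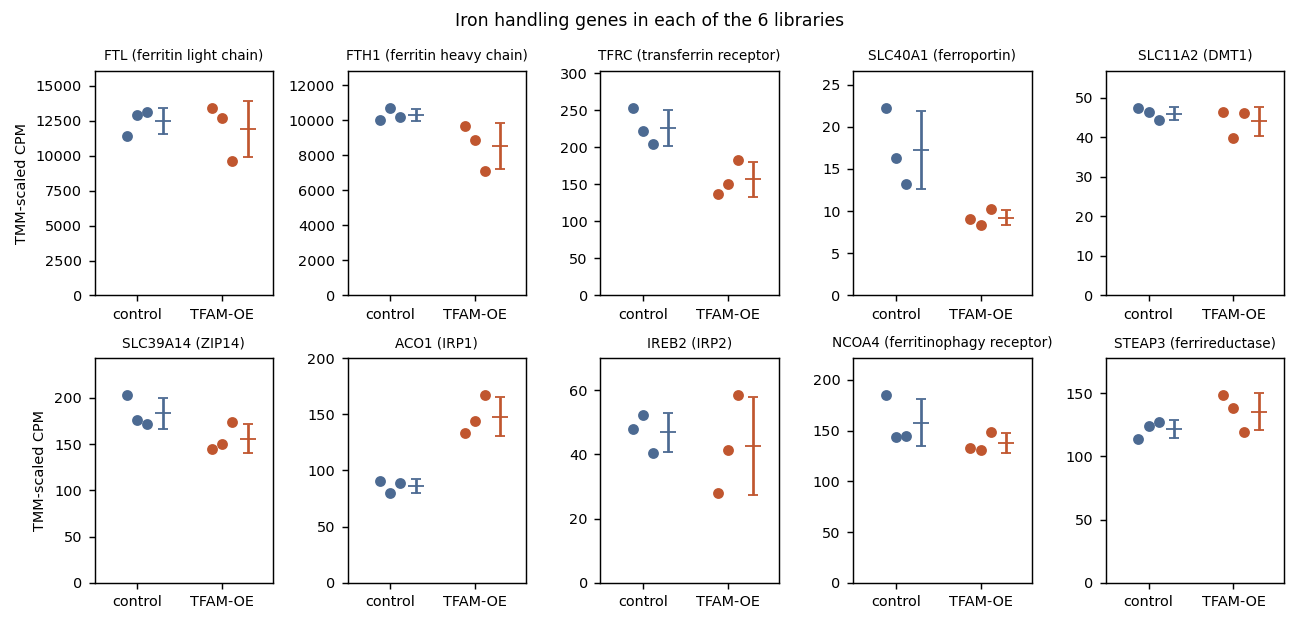
Normalised counts (TMM-scaled CPM, linear axes from 0) of the 10 genes, with 1 point per library and the mean with its SD (n = 3) beside each group. The TFAM-OE points lie above all control points for ACO1 and below them for TFRC, SLC40A1 and FTH1.

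By level, the 10 genes spanned more than 3 orders of magnitude in the deposited FPKM, a unit that corrects for length. FTL had the highest mean FPKM of all listed genes over the 6 libraries, 11724, and FTH1 the next, 4924. A middle tier held NCOA4 at 30.8, TFRC at 30.6, SLC39A14 at 27.2, STEAP3 at 23.8 and ACO1 at 13.2 FPKM. SLC11A2 at 5.30, IREB2 at 4.02 and SLC40A1 at 3.28 FPKM were the lowest. Neighbours within the middle tier differed by less than the larger of their SDs, apart from ACO1, whose highest library stood below the lowest STEAP3 library. The SDs of SLC40A1 and IREB2 in the control libraries overlapped as well, at 4.30 ± 1.27 and 4.22 ± 0.593 FPKM (n = 3).

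FTL (ENSG00000087086.13, chr19:48965309-48966879, plus strand, 4 exons) encodes the ferritin light chain. Its normalised counts were 11381, 12914 and 13097 CPM in the control libraries and 13406, 12677 and 9652 CPM in TFAM-OE. The ranges overlapped, with the highest and the lowest value both in the TFAM-OE group. The log2 fold change was -0.07 (SE 0.143, 95% interval -0.39 to 0.25, edgeR adjusted p = 0.818), and its sign turned to 0.072 without TFAM-OE 3.

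FTH1 (ENSG00000167996.15, chr11:61959718-61967634, minus strand, 4 exons) encodes the heavy chain, which carries the ferroxidase centre. It had 10004, 10685 and 10177 CPM in the control libraries and 9659, 8847 and 7111 CPM in TFAM-OE. Every TFAM-OE library was below every control library. The log2 fold change of -0.27 (SE 0.132, 95% interval -0.56 to 0.02) did not pass the edgeR test, with an adjusted p of 0.234. Leaving out 1 library at a time gave log2 fold changes between -0.37 and -0.15, the smallest without TFAM-OE 3.

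Because both chains assemble into the same shell, their transcripts were also compared within each library, which needs no scaling between libraries. FTH1 gave 0.879, 0.827 and 0.777 reads per FTL read in the control libraries and 0.721, 0.698 and 0.737 in TFAM-OE. The groups did not overlap, and the TFAM-OE libraries lay closer together than the controls. The group means were 0.828 ± 0.0510 and 0.718 ± 0.0195 (SD, n = 3), and the difference in the log2 ratio was -0.20 with an exact two-sided permutation p of 0.1, the smallest that 3 against 3 libraries allow. It stayed between -0.25 and -0.16 when any 1 library was left out. Counting error was small beside this, with a standard error of 0.0031 to 0.0041 on the log2 ratio of a single library.

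Together the ferritin chains took 2.21%, 2.37% and 2.29% of all counted reads in the control libraries and 2.19%, 2.12% and 1.75% in TFAM-OE. The difference in means was -0.27 percentage points, again at the smallest exact permutation p of 0.1, and about the size of the SD in TFAM-OE (0.235). It was -0.14 without TFAM-OE 3, and -0.57 when the share was taken of all FPKM. FTH1 alone took 1.04% ± 0.0370 of the control reads and 0.843% ± 0.0902 of the TFAM-OE reads (exact permutation p = 0.1, n = 3), whereas the FTL share was 1.25% ± 0.0655 and 1.18% ± 0.146 (exact permutation p = 0.5, n = 3).

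**Figure D2:**
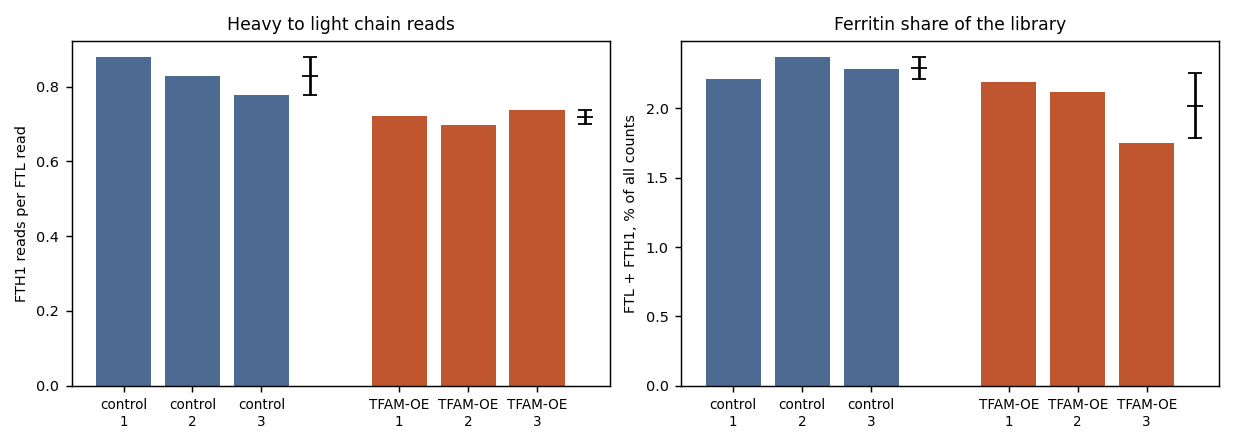
FTH1 reads per FTL read (left) and the percent of all counted reads on FTL and FTH1 (right), with 1 bar per library, axes from 0, and the group mean with its SD (n = 3) to the right of each group. All 3 TFAM-OE ratios (0.698 to 0.737) are below the lowest control ratio, 0.777.

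The size of the gap between the chains depends on the length assigned to each. In the deposited FPKM, FTL stood 2.23 ± 0.138 times above FTH1 in the control libraries and 2.57 ± 0.0699 times in TFAM-OE (n = 3). If the authors scaled by the totals of the counted reads, those FPKM correspond to about 1032 to 1040 nt for FTL and 1900 to 1916 nt for FTH1. The MANE transcripts have 871 and 1203 nt. Which totals the authors used was not checked, and the lengths in nt depend on them. Per MANE length, FTL gave 1.57, 1.67 and 1.78 times the reads of FTH1 in the control libraries and 1.92, 1.98 and 1.88 times in TFAM-OE. FTL was the higher of the chains by either length. A change of length multiplies every library by the same factor, so it leaves the comparison between the groups as it was.

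Both ferritin genes have many processed copies in the human genome, which can share reads with them. The annotation lists 25 FTH1 and 16 FTL pseudogenes. Of the 1054 windows of 150 nt in the FTH1 reference mRNA, 0.759% had an identical copy in a pseudogene and 47.2% a copy within 4 mismatches. For FTL these shares were 0% and 41.1% of 722 windows. Few reads were in fact assigned to the copies, 119 to 205 per library for all FTH1 pseudogenes (0.0461% to 0.0558% of the FTH1 reads) and 6 to 26 for all FTL pseudogenes. The study counted uniquely mapped reads only, so reads that fitted a gene and a copy equally well are not in these counts.

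The most counted copy was FTH1P10, on chromosome 5, with 89, 79 and 120 control reads against 70, 78 and 65 in TFAM-OE (log2 fold change -0.45, SE 0.171, edgeR adjusted p = 0.133). FTH1P15, on chromosome 6, had 34 to 45 control reads and 37 to 55 TFAM-OE reads (log2 fold change 0.04, edgeR adjusted p = 0.947). FTLP3, on chromosome 20, had 6, 9 and 11 against 24, 12 and 7 reads (log2 fold change 0.70, SE 0.501, edgeR adjusted p = 0.415). None of these 3 passed the test, the other copies in the table were below the filter, and reads from a gene and its near-identical copies cannot be fully told apart.

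A different overlap touches FTH1. BEST1, which encodes bestrophin-1, a chloride channel best known from the retinal pigment epithelium, shares 5798 bases with FTH1 on the opposite strand. BEST1 was assigned 18269, 16789 and 20995 control reads, and 17575, 18131 and 11883 reads in TFAM-OE. Per 100 FTH1 reads this was 5.44, 5.87 and 5.63 in the control libraries and 5.71, 5.64 and 5.57 in TFAM-OE, a nearly fixed proportion. BEST1 had a log2 fold change of -0.27 (SE 0.129, edgeR adjusted p = 0.222), equal to that of FTH1 to 2 decimals. The library kit keeps strand, whether the counting used it is not given in the sources used here, and the source of the BEST1 reads was not tested.

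TFRC (ENSG00000072274.12, chr3:196012511-196082153, minus strand, 19 exons) encodes the transferrin receptor, the main route of iron entry in dividing cells. Its counts were 252.7, 221.2 and 204.4 CPM in the control libraries and 136.4, 150.9 and 182.9 CPM in TFAM-OE. The groups did not overlap, and TFAM-OE 3 came closest to the controls. TFRC fell by 0.53 on the log2 scale (SE 0.128, 95% interval -0.81 to -0.24, edgeR adjusted p = 0.0351), to 0.693 times the control level. In FPKM the means were 36.3 ± 4.95 and 24.9 ± 5.13 (SD, n = 3).

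The TFRC call was close to the threshold. It was lost without control 1 (adjusted p = 0.170), control 2 (0.127) or TFAM-OE 2 (0.162) in the edgeR test, and it held in 10 of 18 alternative analyses, in which the adjusted p ran from 3.7e-04 to 0.170. It was below 0 in all 18, with log2 fold changes between -0.65 and -0.43.

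SLC40A1 (ENSG00000138449.10, chr2:189560590-189583758, minus strand, 8 exons) encodes ferroportin. It had 22.2, 16.3 and 13.2 CPM in the control libraries and 9.07, 8.39 and 10.2 CPM in TFAM-OE. The groups did not overlap, and the control libraries spread more widely than TFAM-OE. SLC40A1 fell by 0.90 on the log2 scale (SE 0.189, 95% interval -1.33 to -0.48, edgeR adjusted p = 0.0203), to 0.535 times the control level. It had the fewest reads of the 10 genes, 437 to 746 per control library and 289 to 306 per TFAM-OE library.

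The SLC40A1 call was lost without control 1 (edgeR adjusted p = 0.0878), control 2 (0.0828) or TFAM-OE 2 (0.106) and held in 13 of 18 alternatives, with adjusted p between 1.7e-06 and 0.107. The log2 fold change was -0.67 without control 1, -0.93 without control 2 and -0.84 without TFAM-OE 2. Over the 18 alternatives it lay between -1.065 and -0.671. Fewer cells that express a gene and less RNA per cell cannot be told apart in such bulk libraries.

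ACO1 (ENSG00000122729.18, chr9:32384603-32454769, plus strand, 21 exons) encodes the cytosolic aconitase, which becomes iron regulatory protein 1 when it lacks its iron-sulfur cluster. It had 91.0, 79.5 and 88.7 CPM in the control libraries and 133.1, 144.1 and 166.8 CPM in TFAM-OE. Every TFAM-OE library was above every control library by a wide margin. ACO1 rose by a log2 fold change of 0.78 (SE 0.110, 95% interval 0.53 to 1.02, edgeR adjusted p = 0.00351), 1.71 times the control level. In FPKM the means were 9.77 ± 0.830 and 16.5 ± 2.81 (SD, n = 3). This call held in 17 of 18 alternatives, with adjusted p from 1.1e-08 to 0.0509, and whichever library was left out.

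IREB2 (chr15:78437431-78501453, plus strand, 22 exons) encodes iron regulatory protein 2, the paralogue that iron controls through protein decay. It had 48.03, 52.30 and 40.39 CPM in the control libraries and 27.98, 41.21 and 58.35 CPM in TFAM-OE. The TFAM-OE libraries enclosed the whole control range, and their mean of 42.5 ± 15.2 CPM lay close to TFAM-OE 2 only. The log2 fold change of -0.14 had the widest standard error of the 10 genes (0.223, 95% interval -0.64 to 0.36, edgeR adjusted p = 0.734), and it was 0.087 without TFAM-OE 1 and -0.43 without TFAM-OE 3. The difference between the changes of ACO1 and IREB2 was not tested.

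**Figure D3:**
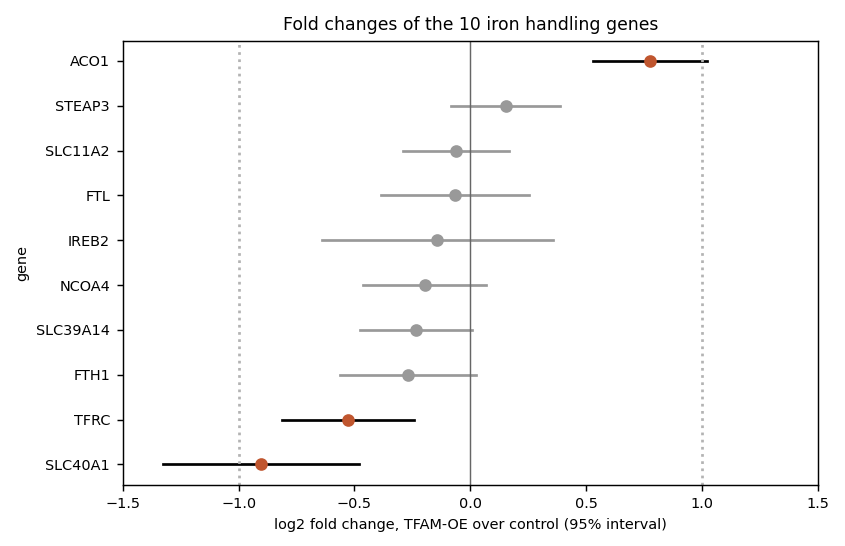
Log2 fold changes of the 10 genes (TFAM-OE over control) with 95% intervals from the edgeR quasi-likelihood fit. Coloured points passed an adjusted p of 0.05, and dotted lines mark a 2-fold change. ACO1 lies at 0.78, TFRC at -0.53 and SLC40A1 at -0.90, and the intervals of the other 7 genes include 0.

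The other entry genes did not pass the test. SLC11A2 (chr12:50979401-51028566, minus strand, 16 exons), the divalent metal transporter DMT1, had 47.4, 46.4 and 44.3 CPM in the control libraries and 46.3, 39.8 and 46.1 CPM in TFAM-OE. Apart from TFAM-OE 2, its libraries were nearly level, and the log2 fold change was -0.06 (SE 0.103, 95% interval -0.29 to 0.17, edgeR adjusted p = 0.749), or 0.0090 without TFAM-OE 2.

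SLC39A14 (chr8:22367278-22434129, plus strand, 9 exons), the transporter ZIP14 that takes up iron not bound to transferrin, had 202.6, 176.2 and 171.5 CPM in the control libraries and 144.8, 149.6 and 173.5 CPM in TFAM-OE. Only TFAM-OE 3 reached into the control range. The log2 fold change was -0.23 (SE 0.109, 95% interval -0.48 to 0.01, edgeR adjusted p = 0.21), and without TFAM-OE 3 it was -0.31 and passed (edgeR adjusted p = 0.0463, within a range of 0.0463 to 0.562 over the 18 alternatives), whereas without control 1 it was -0.15.

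STEAP3 (chr2:119223831-119265652, plus strand, 6 exons), the endosomal ferrireductase, had 113.9, 123.9 and 127.4 CPM in the control libraries and 148.1, 138.4 and 119.3 CPM in TFAM-OE. With TFAM-OE 3 inside the control range, the log2 fold change of 0.15 did not pass (SE 0.106, 95% interval -0.08 to 0.39, edgeR adjusted p = 0.402), and it was 0.084 without TFAM-OE 1 and 0.24 without TFAM-OE 3. An antisense gene, STEAP3-AS1, overlaps it on the other strand but held only 85 to 125 reads per library.

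NCOA4 (chr10:46005088-46030623, minus strand, 10 exons), the receptor that hands ferritin to autophagosomes for degradation, had 184.7, 143.7 and 144.8 CPM in the control libraries and 133.0, 130.9 and 148.9 CPM in TFAM-OE. Control 1 stood above the other 5 libraries, which lay between 130.9 and 148.9. Its log2 fold change was -0.20 (SE 0.119, 95% interval -0.46 to 0.07, edgeR adjusted p = 0.332), and it was -0.06 without control 1.

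**Figure D4:**
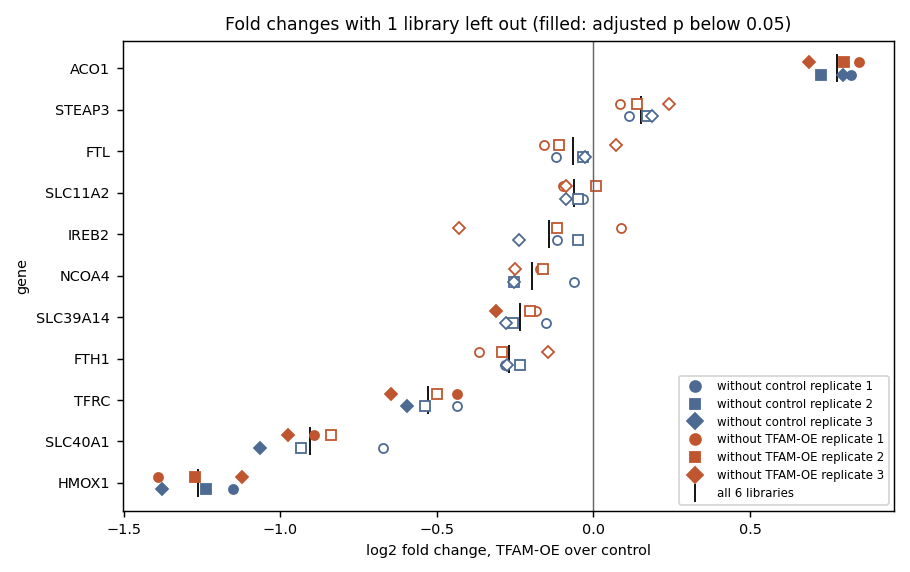
Log2 fold changes of the 10 genes and HMOX1 with each library left out in turn (filled symbols: edgeR adjusted p below 0.05). The symbols of ACO1 and HMOX1 are all filled, those of TFRC and SLC40A1 are open without control 1, control 2 or TFAM-OE 2, and those of FTL, IREB2 and SLC11A2 fall on both sides of 0.

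TFAM-OE 3 gave the lowest TFAM-OE value of FTL, FTH1 and STEAP3 and the highest of TFRC, SLC40A1, SLC39A14, ACO1, IREB2 and NCOA4. It was thus nearest to the controls for TFRC and SLC40A1 and farthest from them for ACO1 and FTH1. Its part in these differences is measured only by the values without it. The genes whose log2 CPM followed those of 3 members most closely over the 6 libraries were RPL36 for FTL (Pearson r = 0.999), RNF25 for FTH1 (r = 0.998) and ZNF281 for TFRC (r = 0.999), given as a description, since the libraries share the group difference.

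Beyond the 10, 70 of a list of 81 further genes of iron and haem handling were tested. PPOX, FECH and FDXR rose, HMOX1 and HPX fell, and 65 did not pass. HPX had passed the filter on low counts only through the control libraries, so its call and its place in these counts are a description. The called share was 7.14%, beside 8.29% of all tested genes, and the median log2 fold change was 0.05, beside -0.01. The groups did not overlap for 16 genes in the higher and 5 in the lower direction, 30% of the list, beside 31.7% of all tested genes.

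HMOX1 encodes haem oxygenase-1, which opens haem and frees its iron. It had 858.8, 773.0 and 626.9 CPM in the control libraries and 368.7, 319.2 and 254.0 CPM in TFAM-OE. Every TFAM-OE library held less than the lowest control, and HMOX1 fell by 1.26 on the log2 scale (SE 0.157, 95% interval -1.61 to -0.91, edgeR adjusted p = 0.00186). The call held in all 18 alternatives, with adjusted p up to 0.0195. HPX, the haem-binding plasma protein haemopexin, had 20, 16 and 13 reads in the control libraries against 1, 4 and 1 in TFAM-OE, where it would not have passed the filter (log2 fold change -2.99, SE 0.548, edgeR adjusted p = 0.0118). The HPX call held in 14 of 16 alternatives and was lost without control 1 (edgeR adjusted p = 0.0729) or control 2 (0.0638), and on unfiltered log2(FPKM + 0.1) its log2 fold change was -1.46. The other 7 genes of haem breakdown and transport did not pass.

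The 8 tested genes of haem synthesis all had positive log2 fold changes, with a median of 0.38, and 2 of them passed. PPOX, protoporphyrinogen oxidase, rose from 3.96, 5.454 and 6.004 CPM to 10.07, 11.77 and 11.03 CPM (log2 fold change 1.09, SE 0.173, edgeR adjusted p = 0.00592). FECH, ferrochelatase, which places iron into the porphyrin ring, rose from 32.7, 35.4 and 32.8 CPM to 42.2, 44.7 and 49.2 CPM (log2 fold change 0.43, SE 0.104, edgeR adjusted p = 0.0344). The PPOX call held in all 18 alternatives but the FECH call in 9, with adjusted p for FECH between 0.00675 and 0.149. In both genes the groups were apart, as they were in ALAD, UROD and CPOX, which did not pass, so that 62.5% of the list was apart and higher, beside 15.8% of all tested genes. The list was drawn up with earlier results of these data known, so this is a description.

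FDXR, the ferredoxin reductase that supplies electrons to mitochondrial iron-sulfur cluster assembly, was the only one of 18 tested genes of mitochondrial iron and iron-sulfur clusters to pass. It rose from 47.6, 61.5 and 65.3 CPM to 99.4, 101.1 and 80.2 CPM (log2 fold change 0.69, SE 0.140, edgeR adjusted p = 0.0183), and the median of the list was 0.02. The call held in 13 of 18 alternatives, with adjusted p from 1.7e-06 to 0.0976. None of 9 tested genes of cytosolic iron-sulfur clusters passed, though 8 had positive log2 fold changes (median 0.27) and the groups were apart and higher for 4 of the 9, beside 15.8% of all tested genes.

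**Figure D5:**
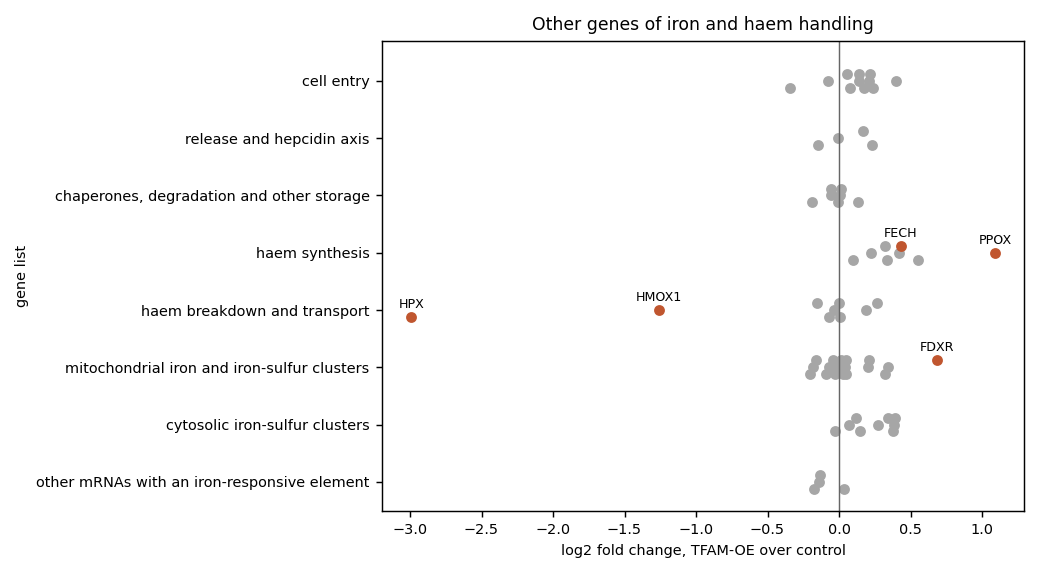
Log2 fold changes (TFAM-OE over control) of the 70 further tested genes, 1 point per gene, by list. Coloured and named points passed an adjusted p of 0.05 in the edgeR test. HMOX1 (-1.26) lies to the left, as does HPX (-2.99), which passed the filter only through the control libraries, and all 8 genes of haem synthesis lie to the right of 0.

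In the lists of cell entry, release and storage no gene passed (11 tested for cell entry, 4 for release and hepcidin, 7 for chaperones, degradation and other storage). SLC39A8, the ZIP8 transporter, an entry gene, had a log2 fold change of -0.34 (SE 0.112, edgeR adjusted p = 0.0903), with all TFAM-OE libraries below the controls. The iron chaperone genes PCBP1 and PCBP2 were at -0.05 (edgeR adjusted p = 0.756) and 0.13 (edgeR adjusted p = 0.347). FBXL5, which marks iron regulatory protein 2 for degradation, was at -0.06 (edgeR adjusted p = 0.781). The values of the ferrireductase CYBRD1 and of TFR2, a transferrin receptor paralogue, were -0.08 (edgeR adjusted p = 0.708) and 0.22 (edgeR adjusted p = 0.466).

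LCN2, a carrier of siderophore-bound iron, was at 0.14 (edgeR adjusted p = 0.682), and CP, the ferroxidase ceruloplasmin, at -0.01 (edgeR adjusted p = 0.992). HAMP, which encodes hepcidin, the hormone that removes ferroportin from the cell surface, had 2 reads in TFAM-OE 1, 1 in control 2 and none in the other 4 libraries. TF, which encodes transferrin, had at most 5 reads and the ferroxidase gene HEPH at most 7 in any library, and these 3 genes were below the filter. FTMT, mitochondrial ferritin, was not analysed here.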

How the data were processed

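The authors trimmed the reads of 150 nt with FASTX-Toolkit 0.0.13, kept those of at least 16 nt and aligned them to GRCh38 with TopHat2, allowing 4 mismatches. The deposited counts are whole reads per gene and were tested as deposited. The deposited FPKM were scaled by the authors for gene length and depth and served for levels between genes. Totals of 26650854 to 37321956 reads set the precision, and reads carry no molecular identifiers, so counting errors cover counting only.

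Groups followed the submitters' treatment labels. Genes kept by filterByExpr in edgeR 4.0.16 (R 4.3.3) were scaled by TMM and tested, two-sided, with the quasi-likelihood test on 3 against 3 libraries. Adjusted p-values are Benjamini-Hochberg values over all 16555 genes tested, called at 0.05, and, as in the study's rule, also with a 2-fold change. The filter was used because the fit over all genes with a read gave 14.1% false calls on simulated data against 7.19% with it. Of 1.5-fold and 2-fold changes in the simulation with the filter (16568 genes run), 40% and 88% were recovered. The simulation changed 50 genes at each size and gave 167 calls, against 1372 in the data. The simulated rates may therefore differ from those of the real comparison. The FTH1 to FTL ratio and the ferritin share were tested by exact permutation.

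All 10 genes are named, with pseudogenes of at least 10 mean reads, overlapping genes that have values, listed genes past the threshold, a set of listed genes given whatever their values, and the most alike gene of 3 members. The genes and lists were chosen with earlier results of these data known. Alternatives were other scalings, filters, edgeR's exact test, DESeq2 1.42.0, limma 3.58.1 (voom, and limma-trend on log2(FPKM + 0.1) or log2(FPKM + 1)), a replicate block and each library left out. The study calls the libraries biological replicates.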

Additional observations from a re-analysis of the deposited data

How the results depend on the processing

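ACO1 was called in 17 of 18 alternatives, SLC40A1 in 13 and TFRC in 10, and each kept its direction in all 18. With every gene with a read tested, 1034 genes were called higher and 1485 lower, against 576 and 796, and 6 further iron genes were called higher, against 3. DESeq2 called 932 genes higher and 1105 lower, with 5 further iron genes higher and 2 lower, and edgeR's exact test called 980 higher and 1236 lower, also with 5 further iron genes higher and 2 lower. Limma-trend on log2(FPKM + 0.1) without a filter called 160 higher and 293 lower, none of the 10 genes (0 higher, 0 lower), and 1 further gene higher. With the filter, limma-trend with a pseudocount of 0.1 or of 1 called 1 of the 10 and 1 further gene lower, and scaling by library size also called 1 of the 10 lower. With the study's added 2-fold rule, the main edgeR fit called 74 higher and 342 lower, and 0 of the 10 in either direction. These counts belong to this filtered fit, and the study reported larger ones from its own edgeR run. The ferritin share as a percent of all FPKM differed by -0.57 percentage points.

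Same-numbered libraries did not deviate together (correlations -0.22, 0.01 and -0.27). Deviations from a mean of 3 libraries depend on each other, so these values cannot settle whether the numbers pair the libraries. With the replicate block 74 genes were called higher and 285 lower, 1 of the 10 (ACO1) higher, 0 lower, and 1 further gene higher.

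With 1 library left out, between 66 and 1428 genes were called higher and between 240 and 1786 lower. The low counts came without control 1 (90 and 252), control 2 (66 and 240) or TFAM-OE 2 (89 and 262), the high ones without TFAM-OE 3, and the cause was not tested. Between 0 and 3 of the 10 were called lower, and between 1 and 12 further genes higher and 1 and 3 lower. The sign turned for FTL (-0.16 to 0.072, positive without TFAM-OE 3), IREB2 (-0.43 to 0.087, positive without TFAM-OE 1) and SLC11A2 (-0.098 to 0.0090, positive without TFAM-OE 2), none of them called. TFAM ran from 0.04 to 0.14, the ratio difference from -0.25 to -0.16 and the share difference from -0.36 to -0.14. With 3 libraries per group the exact tests reach no lower than p = 0.1, and of simulated 1.5-fold changes 40% were recovered. HPX was below the filter of the 2 filtered FPKM fits.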

Other observations

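Other genes followed the members over the 6 libraries nearly as closely as those named above. For FTL the next were ATOX1, a copper chaperone gene (Pearson r = 0.995), and AC026803.1 (r = 0.994). For FTH1 they were ZC3H12A, an RNase that acts on inflammatory mRNAs (r = 0.998), and MYDGF, a secreted factor (r = 0.997), and for TFRC they were NBPF12 and TBC1D15 (both r = 0.997). These correlations of log2 CPM are over 6 libraries that share the group difference, so they carry no test.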
